A study of Rattus norvegicus with 6 samples.

Results

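Cytosolic ribosomal protein genes encode the proteins that, with ribosomal RNA, make up the ribosomes of the cytoplasm. They were taken from the deposited table as the protein-coding entries whose symbols are Rpl or Rps followed by a number, Rplp0 to Rplp2, or Rpsa, which gave 79 of 37991 entries. Of these, 46 encode proteins of the large subunit and 33 proteins of the small subunit. All 77 core genes of the list were present, and the other 2 entries were a second entry for Rps19 (108348115) and Rps4y2, a paralog of Rps4x. All 79 passed the filter on low counts, with 411 to 933 reads for the lowest member of a library and 106146 to 152020 for the highest. RNA came from SD rat cells grown in culture and belonging to the oligodendrocyte lineage, which forms the myelin of the central nervous system. The 3 precursor libraries (replicates 1, 2 and 5) were the control, from cells kept in Raff medium before differentiation, and the 3 differentiated libraries (replicates 1, 2 and 5) came from cells taken after a change of growth factors. Titles give day 0 and day 3 for replicates 1 and 2, and no day in that form for replicate 5. Total RNA was sequenced, and libraries held 55522101 to 79898629 counts.

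The ribosome is built from a small subunit, which reads the messenger RNA, and a large subunit, which joins amino acids and lets the new chain out through its exit tunnel. Cells make its proteins in near-equal numbers, and their mRNAs are among the most abundant of most cells. Their transcripts usually start with a C followed by a run of pyrimidines (C or T in the DNA), called a terminal oligopyrimidine (TOP) start, through which mTOR signalling and the RNA-binding protein Larp1 control their translation and stability. A cell that leaves the cell cycle generally needs fewer new ribosomes, whereas an oligodendrocyte that forms myelin makes large amounts of membrane and myelin protein.

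A run of C and T near the start of the transcript is a sequence that most, but not all, members of the family share. Start sites were available for 60 of the 79 members in RefSeq's table for the rat assembly GRCr8. The windows shown reach from 15 bases before the annotated start to 15 bases from it on, on the strand of the gene, and capitals mark the longest unbroken run of C and T that touches the 10 bases on either side of the start. They are from the gene with the lowest fold change (Rps24) and from further members with a negative log2 fold change (Rps3a, Rps7, Rps27 and Rpl31). Those further members had values of -0.60, -0.48, -0.44 and -0.41. The reported fit called none of them (edgeR adjusted p = 0.153, 0.223, 0.125 and 0.301). The other windows are from a pair that differed little (Rpl13 and Rplp0) and from a pair without a run of 6 bases (Rpl26 and Rps12). Rps7, Rps27 and Rpl31 were picked after their values were seen.
Rps24: tgagcggTCCTCTTTTCCTCCTTTacagct
Rps3a: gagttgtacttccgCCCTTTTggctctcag
Rps7: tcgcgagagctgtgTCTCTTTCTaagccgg
Rps27: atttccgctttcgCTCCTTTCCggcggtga
Rpl31: ccacaatccctcgcgCCTTTCCTTTCCaac
Rpl13: ctttgcggtgcccgaTCCTTTCCgctcggc
Rplp0: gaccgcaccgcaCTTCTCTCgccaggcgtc
Rpl26: ctcgtgtcaaCTTacagaaccggaagtcgc
Rps12: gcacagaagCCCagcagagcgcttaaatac
The windows lie at chr16:96502-96531 (Rps24, plus strand), chr2:173827028-173827057 (Rps3a, minus), chr6:50999431-50999460 (Rps7, minus), chr2:177964592-177964621 (Rps27, minus), chr9:49143096-49143125 (Rpl31, plus), chr19:68062499-68062528 (Rpl13, plus), chr12:46718376-46718405 (Rplp0, minus), chr10:54109677-54109706 (Rpl26, plus) and chr1:23500060-23500089 (Rps12, plus). Each spans the annotated first base of its gene, so it holds promoter sequence and the first bases of the first exon.

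An unbroken run of 6 or more C or T touching those bases was present in 48 of the 60 members (80%), against 28.3% of the 27457 genes of the RefSeq table. The run stood in 28 of 36 large subunit genes and in 20 of 24 small subunit genes. Read on the opposite strand, where it appears as a run of A and G, such a run was present in 15% of the members and in 32.3% of all genes. A stricter form, a start base C followed by 4 further C or T, was met by 22 of the 60 members (36.7%) and by 2.63% of all genes. The wider form was chosen after annotated starts were seen to lie a few bases from the run in many members. In some members, Rps3 and Rpsa among them, the run ended before the annotated first base. Among lists of other genes, the wider run was present in 11 of 12 genes of other transcripts known for a TOP start. It was present in 11 of 45 genes of ribosome assembly and in 19 of 61 genes of mitochondrial ribosomal proteins. The median log2 fold change was -0.28 in the 48 members with the run and -0.27 in the 12 without it.

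**Figure D1:**
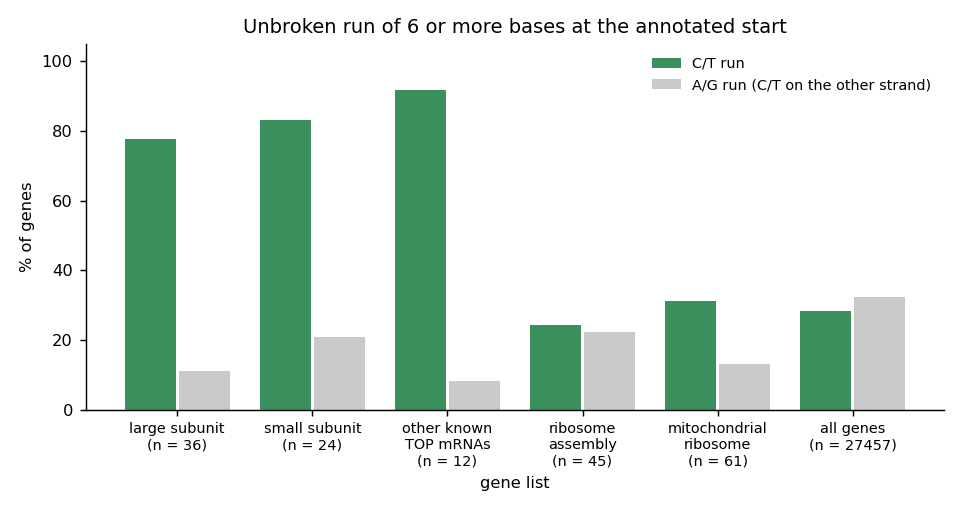
Share of genes (%) with an unbroken run of 6 or more bases touching the 10 bases on either side of the annotated start, by gene list. The run is of C and T on the gene's strand (green) or of A and G (grey). Large subunit genes stand at 77.8%, small subunit genes at 83.3% and all genes at 28.3% for the C and T run.

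Ribosomal protein genes together took a smaller part of the counts in every differentiated library than in every precursor library. They held 5.31%, 5.21% and 4.75% of all counts in precursors 1, 2 and 5, and 4.12%, 4.0% and 3.6% in differentiated 1, 2 and 5. The groups did not overlap on this measure, nor when protein-coding counts alone were the total, where precursors held 6.27%, 5.98% and 5.3% and differentiated libraries 5.05%, 4.73% and 4.22%. Part of the total is not messenger RNA: Rn7sl1, the RNA of the signal recognition particle, took 5.93% to 9.98% of the counts of precursor libraries and 9.55% to 12.5% of those of differentiated libraries. CPM, counts relative to a library total that is corrected by TMM (trimmed mean of M values, which sets libraries level on the bulk of their genes), reduce the weight of such a transcript. On that scale the members summed to 54008, 49612 and 42071 CPM in precursors 1, 2 and 5 and to 45903, 41579 and 36360 CPM in differentiated 1, 2 and 5. Here the groups overlapped, since precursor 5 lay below differentiated 1, while each differentiated library lay below the precursor library of the same number. In bulk RNA, fewer cells with many ribosomes and less ribosomal protein mRNA per cell cannot be told apart.

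**Figure D2:**
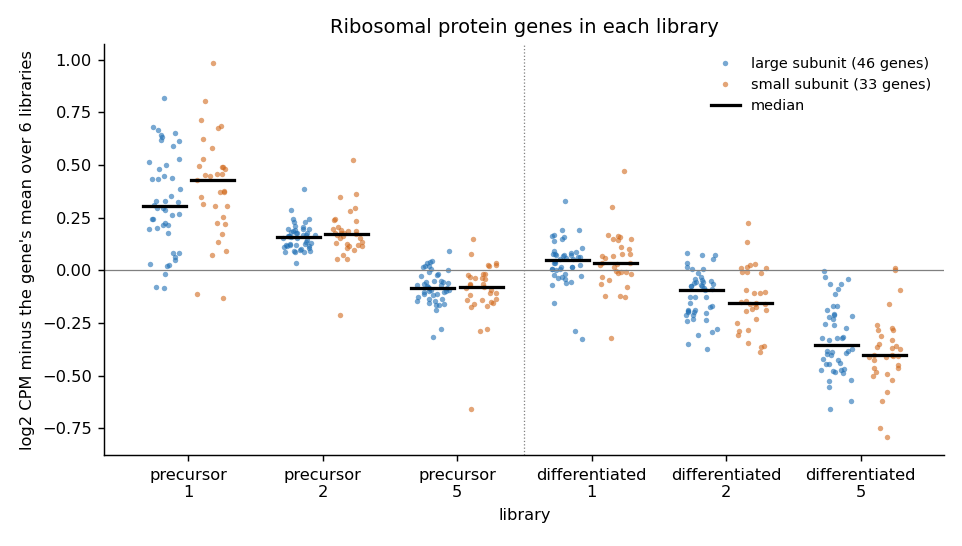
Deviation of log2 CPM from the gene's own mean over the 6 libraries (y axis) for every member in each library (x axis), with large subunit genes in blue, small subunit genes in orange and black bars at the medians. The median over all members runs from 0.35 in precursor 1 to -0.08 in precursor 5 and from 0.04 in differentiated 1 to -0.38 in differentiated 5, so replicates of a group differ as much as the groups do.

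Libraries of one group differed from each other in these genes about as much as the groups did. Precursor 1 was the highest precursor library for 64 of the 79 members and precursor 5 the lowest for 73. Among differentiated libraries, differentiated 1 was the highest for 65 members and differentiated 5 the lowest for 73. The same replicate number was thus high, or low, in both groups. Across all genes, too, libraries of the same number deviated together. The numbers were therefore taken to pair the libraries, and results are given without and with the replicate number as a block, a term that takes out the level shared by a pair. Whether replicates were grown apart or taken from different animals is not in the labels, so the p-values speak of these libraries' spread alone, which may be technical.

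Without the block, edgeR's quasi-likelihood test called 0 of the 79 members higher and 0 lower at an adjusted p under 0.05, where it called 5.65% of all 17797 genes tested higher and 3.21% lower. The smallest adjusted p of a member was 0.097 (Rps20), 16 members had an unadjusted p under 0.05, against 23.1% of all genes. DESeq2 called 4 members lower (Rps12, Rps20, Rpl17 and Rpl27a) and 0 higher, against 6.98% and 8.51% of all genes. All of these shares lay below those of all genes. With the replicate block, edgeR called 53 of 79 members lower and 0 higher, where it called 15.7% of all genes lower and 14.9% higher. Of those 53, 28 of 46 were large subunit genes and 25 of 33 were small subunit genes. Both entries of Rps19, whose counts were nearly equal, are among the 53. Of the 77 core genes, which hold Rps19 once, 52 were called lower. The median standard error (SE) of a member's log2 fold change was 0.16 without the block and 0.06 with it. With the block and 1 pair left out, 54 members were called lower without pair 1, 30 without pair 2 and 32 without pair 5. The shares of all genes were 16.4%, 6.82% and 8.08%. In all of these fits and the full one, 29 members were called lower, both entries of Rps19 included. The share of all genes called in all of them was not counted, so the 29 cannot be set against it. Without both replicate 1 libraries and with no block, 8 members were called lower, among them Rps7, Rps3a, Rpl5, Rps20, Rpl26, Rpl36a and Rpl27a, against 8.11% of the 18036 genes tested there.

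The shift itself was small and went one way. The log2 fold change, differentiated over precursor, had a median of -0.28 over the 79 members, against -0.04 over all genes tested and 0.08 over the 1806 other genes with a mean of at least 100 CPM. Leaving out precursor 1 brought the members' median to -0.181 and leaving out differentiated 5 to -0.189. The log2 fold change was negative for 76 members, against 53.3% of all genes tested and 40.4% of those other genes of at least 100 CPM. With library size alone in place of TMM it was negative for all 79. With TMM the members' values ran from -0.69 (Rps24) to 0.15 (Rpsa). Large subunit genes had a median of -0.26 and small subunit genes of -0.35, the latter -0.31 with the block; the difference between subunits was not tested. Summed TPM (a level per transcript length, as a part of a fixed library total) of the large subunit genes was 1.24, 1.29 and 1.3 times that of the small subunit genes in precursors 1, 2 and 5, and 1.29, 1.31 and 1.34 times in differentiated 1, 2 and 5. The 2 ranges overlap, while the ratio was higher in the differentiated library of each same-numbered pair; neither was tested. Within same-numbered pairs, the median difference in log2 CPM over the members was -0.33 in pair 1, -0.30 in pair 2 and -0.29 in pair 5. In all 3 pairs 68 of the 79 members were lower in the differentiated library, which was so for 32.0% of all genes. In 10 of the 79, every differentiated library lay below every precursor library, against 13.8% of all genes, a share near that of all genes.

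**Figure D3:**
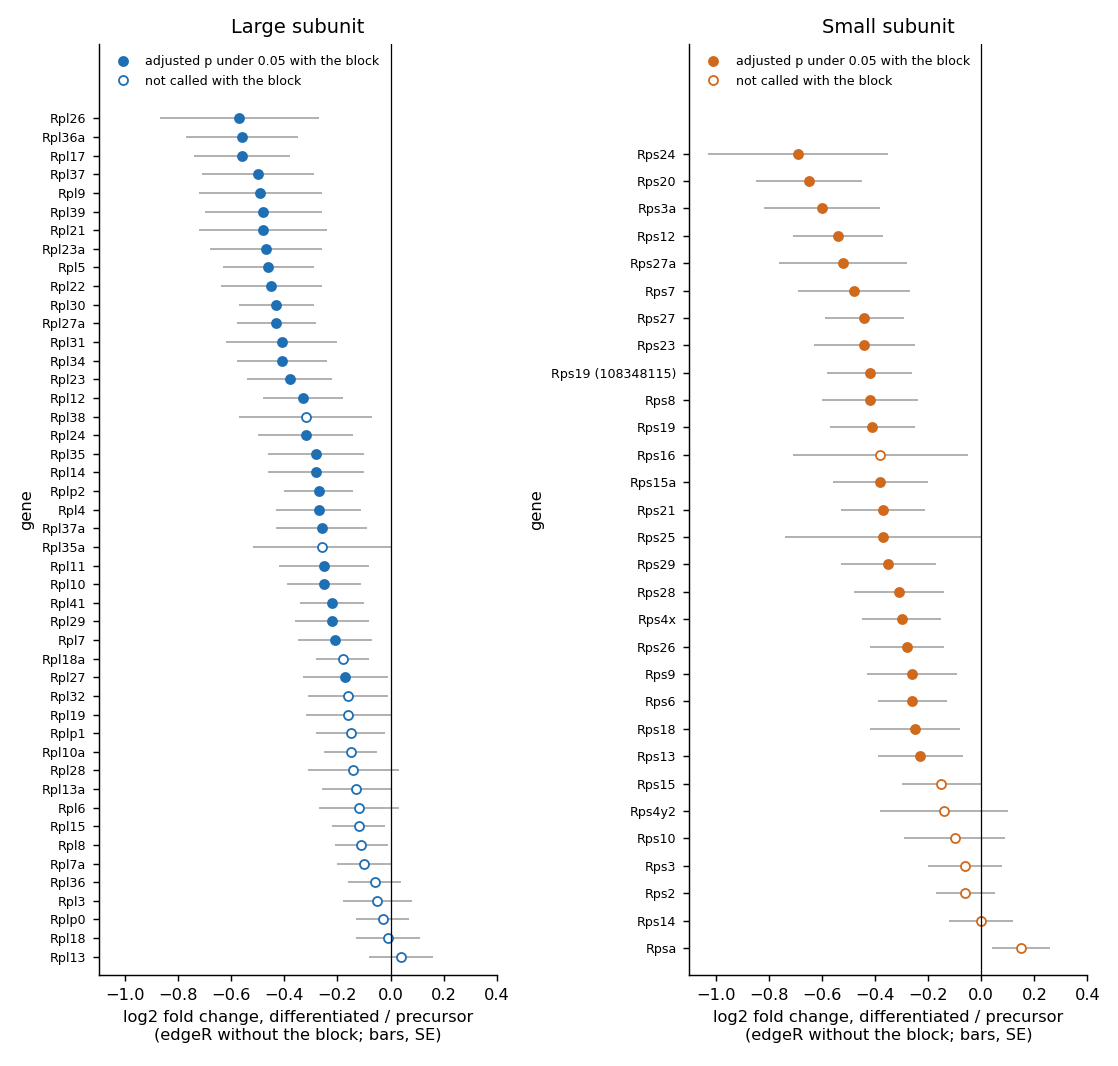
Log2 fold change, differentiated over precursor (x axis), of members (y axis) from edgeR without the block, with its SE as bars, for the large subunit (left) and the small subunit (right). Filled points mark members with an adjusted p under 0.05 once the replicate block was added, 3 members are not drawn, and values run from -0.69 for Rps24 to 0.15 for Rpsa.

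Scaling moved the level of this shift more than its distance from other genes. With library size alone in place of TMM, the median of the members was -0.43 and that of all genes -0.19, and 22 members were called lower, against 5.65% of all genes. On log2(TPM + 1) with limma, which divides by a total that holds Rn7sl1, the medians were -0.54 and -0.22, and 53 members were called lower, against 7.87% of the 14529 genes tested there. The members' median lay 0.24 below that of all genes with TMM, upper quartile scaling, DESeq2's size factors and library size alone (members minus all genes -0.24 in each). That difference was -0.32 on log2(TPM + 1) and -0.27 on log2(TPM + 0.1). With TMM and no low-count filter the difference was -0.21. The members' share of TPM was 8.07%, 8.45% and 8.62% in precursors 1, 2 and 5 and 5.77%, 6.12% and 5.68% in differentiated 1, 2 and 5. With Rn7sl1 left out of the total, it was 12%, 11.8% and 11.3% against 9.42%, 9.5% and 8.63%. Both sets of shares were lower in all differentiated than in all precursor libraries.

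**Figure D4:**
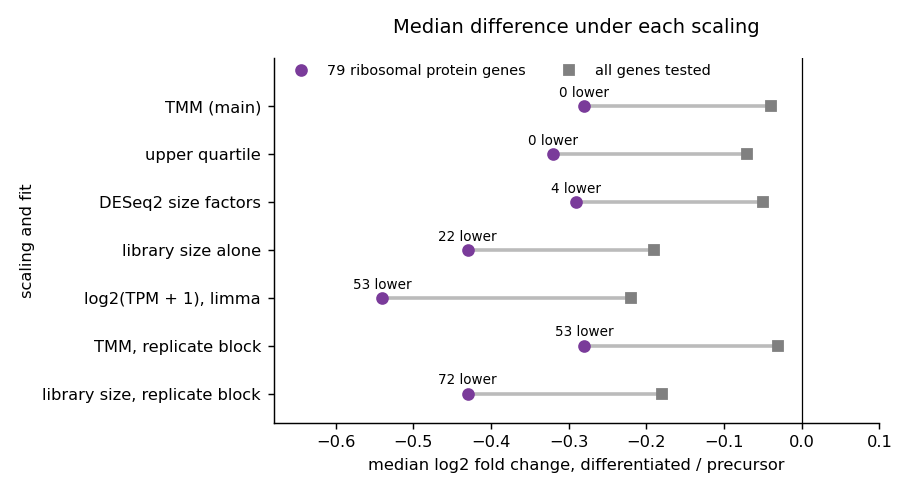
Median log2 fold change, differentiated over precursor (x axis), of the 79 members (purple circles) and of all genes tested (grey squares) under the scalings and fits named on the y axis, with the number of members called lower above each circle. Over the fits drawn, the number called runs from 0 to 72. The 72 were with library size and the block, where 24.0% of all genes were called lower. The members' median minus that of all genes lies between -0.24 and -0.32.

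Among small subunit genes, the lowest fold changes belonged to Rps24, Rps20, Rps3a, Rps12 and Rps27a. Rps20, a protein of the head of the small subunit, stood at 665, 488 and 419 CPM in precursors 1, 2 and 5 and at 395, 316 and 294 CPM in differentiated 1, 2 and 5. Every differentiated library lay below every precursor library. Its mean was 524 ± 127 CPM (SD, n = 3) against 335 ± 53.4 CPM, with a log2 fold change of -0.65 (SE 0.20, edgeR adjusted p = 0.097 without the block and 0.000964 with it). Rps24, which is needed for the maturation of small subunit RNA and is mutated in Diamond-Blackfan anaemia, stood at 732, 414 and 332 CPM in precursors and at 413, 287 and 214 CPM in differentiated libraries, in the same order. Its groups overlapped, because differentiated 1 was as high as precursor 2, and each differentiated library lay below the precursor library of its number. The log2 fold change was -0.69 (SE 0.34, edgeR adjusted p = 0.278 without the block and 0.00116 with it). Rps3a, a protein near the exit of the mRNA channel, stood at 1243, 852 and 749 CPM in precursors and at 753, 590 and 535 CPM in differentiated libraries. Differentiated 1 lay just above precursor 5, so its groups overlapped by 1 library each. Its log2 fold change was -0.60 (edgeR adjusted p = 0.153 without the block). It was called lower with the block (edgeR adjusted p = 0.00132) and without the replicate 1 libraries (edgeR adjusted p = 0.0265).

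Rps12 stood at 442, 400 and 306 CPM in precursors and 288, 282 and 219 CPM in differentiated libraries, which did not overlap (log2 fold change -0.54, edgeR adjusted p = 0.108 without the block and 0.00114 with it). Rps27a, made as a fusion with ubiquitin that is cut after translation, stood at 884, 624 and 518 CPM in precursors and 593, 453 and 371 CPM in differentiated libraries. Its groups overlapped, since differentiated 1 lay above precursor 5. Its log2 fold change was -0.52, and it was called lower with the block alone (edgeR adjusted p = 0.254 without the block and 0.00112 with it). Fau, which lies outside the symbol rule and carries a ubiquitin-like protein and a small subunit protein, stood at 301, 276 and 238 CPM in precursors and 283, 269 and 244 CPM in differentiated libraries. Its log2 fold change was -0.03, and it did not pass the test with or without the block (edgeR adjusted p = 0.722 and 0.906). Rack1, the scaffold protein of the small subunit's head, had one of -0.11 (edgeR adjusted p = 0.61).

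Proteins around the mRNA channel and the platform of the small subunit ranged from -0.60 (Rps3a) to 0.15 (Rpsa) in log2 fold change. Rps2, at the entry of the channel, had a log2 fold change of -0.06 and Rps3 next to it one of -0.06. Rps14, on the platform, had one of 0.00, while Rps26, at the exit, had one of -0.28. Rps26 was called lower with the block alone (edgeR adjusted p = 0.269 without the block and 0.00946 with it). Rpsa, a small subunit protein also known as the laminin receptor, was the one member higher in all 3 pairs. It stood at 1502, 1731 and 1464 CPM in precursors 1, 2 and 5 and at 1739, 1805 and 1659 CPM in differentiated 1, 2 and 5. Precursor 2 lay between the differentiated values, so the groups overlapped, and the test was not passed (log2 fold change 0.15, SE 0.11, edgeR adjusted p = 0.477 without the block and 0.0829 with it). With library size alone in place of TMM its value was -0.00, and on the TPM scale -0.11, so the direction rests on the scaling. Rps6, the substrate of the S6 kinases downstream of mTOR, stood at 642, 610 and 559 CPM in precursors and 576, 482 and 451 CPM in differentiated libraries (log2 fold change -0.26, edgeR adjusted p = 0.261 without the block and 0.0166 with it). Its groups overlapped by differentiated 1 alone.

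Rps16 and Rps25 were picked after their values were seen, for how they differed from the rest. Rps25 spread widely with replicate number, at 809, 482 and 383 CPM in precursors and 643, 375 and 276 CPM in differentiated libraries. Precursor 1 held 2.11 times the CPM of precursor 5, and differentiated 1 held 2.33 times that of differentiated 5, both more than the difference between groups. Rps16 went against its neighbours in pair 5, at 250, 240 and 106 CPM in precursors and 134, 195 and 131 CPM in differentiated libraries, and was not called with the block (edgeR adjusted p = 0.324).

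In the large subunit, Rpl26, Rpl17 and Rpl36a had the lowest fold changes. Rpl26, which sits near the mouth of the exit tunnel, stood at 818, 509 and 430 CPM in precursors and 531, 359 and 294 CPM in differentiated libraries. Each differentiated library was lower than its pair, and the groups overlapped. The log2 fold change was -0.57 (SE 0.30, edgeR adjusted p = 0.304 without the block and 0.000809 with it). Rpl36a stood at 172, 117 and 109 CPM in precursors and 108, 84.3 and 77 CPM in differentiated libraries, with differentiated 1 just below precursor 5. Its log2 fold change was -0.56 (edgeR adjusted p = 0.166 without the block and 0.002 with it). Rpl17, another protein of the tunnel's mouth, stood at 288, 261 and 186 CPM in precursors and 159, 187 and 152 CPM in differentiated libraries. Here differentiated 2 and precursor 5 were nearly equal, and the value without the block was -0.56 (SE 0.18, edgeR adjusted p = 0.107). With the block it was called lower (edgeR adjusted p = 0.0123). Of the fits with a single library left out, it passed only in the one without precursor 5, its lowest precursor library. Without both replicate 1 libraries its value was -0.39 (edgeR adjusted p = 0.198).

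Among the other proteins of the exit tunnel, Rpl4 had a log2 fold change of -0.27, Rpl22 of -0.45 and Rpl39, which lines the tunnel, of -0.48. All 3 and Rpl17 were called lower with the block (edgeR adjusted p from 0.00269 for Rpl22 to 0.0217 for Rpl4). The large subunit proteins that bind and restrain the p53 ligase Mdm2 when ribosome assembly is disturbed are Rpl5, Rpl11 and Rpl23. Rpl5 stood at 765, 606 and 556 CPM in precursors and 562, 438 and 398 CPM in differentiated libraries, with a log2 fold change of -0.46. Rpl11 had one of -0.25 and Rpl23 one of -0.38, and all 3 were called lower with the block. With the block, 67.1% of all members and 15.7% of all genes were called lower. Calls of 3 or 4 genes thus do not set a role apart from the other members. The proteins of the stalk, which draws in elongation factors, had log2 fold changes from -0.27 to -0.03. Rplp0, the base of the stalk and often used as a reference gene, stood at 1835, 2124 and 1927 CPM in precursors and 1857, 1960 and 1932 CPM in differentiated libraries, a log2 fold change of -0.03. Rplp1 had one of -0.15, and Rplp2, with one of -0.27, was called lower with the block (edgeR adjusted p = 0.259 without the block and 0.0362 with it). Rpl13 stood at 831, 996 and 785 CPM in precursors and 889, 933 and 862 CPM in differentiated libraries (log2 fold change 0.04, edgeR adjusted p = 0.89). Its differentiated values all lay within the range of the precursors, and its value was -0.11 with library size alone.

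Levels per transcript length placed the family at the top of the expressed genes, and 43 members were among the 100 protein-coding genes with the highest mean TPM. The median core gene had a mean of 902 TPM over the 6 libraries, with quartiles of 603 and 1172 TPM. Large subunit genes had a median of 890 TPM and small subunit genes of 902 TPM. Rpl41, the shortest ribosomal protein, was the highest in every library, at 2705, 2961 and 3408 TPM in precursors 1, 2 and 5 and 2121, 2107 and 2239 TPM in differentiated 1, 2 and 5. Its lowest precursor library lay above its highest differentiated library on this scale, and on the CPM scale its log2 fold change was -0.22 (edgeR adjusted p = 0.31 without the block and 0.0246 with it). Rps2, Rps18, Rplp0, Rps14, Rpsa and Rpl7 followed by mean TPM, and the ranges of neighbours in that order over the 6 libraries overlapped, those of Rpl41 and Rps2 included. Rplp0 and Rps14 had means of 1884 and 1883 TPM. Of these abundant members, Rpl41, Rps18 and Rpl7 were called lower with the block, while Rps2, Rplp0, Rps14 and Rpsa were not. Across the 79 members the log2 fold change and log2 mean TPM had a Spearman correlation of 0.35 (Pearson 0.15), a description over genes that share the same 6 libraries.

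The order of the members by their change was alike in separate pairs of libraries. Across the 79 members, the difference in log2 CPM in pair 2 and that in pair 5 had a Pearson correlation of 0.78, pairs 1 and 2 one of 0.71 and pairs 1 and 5 one of 0.60. These pairs share no library, but genes are not independent replicates, and the same correlations over 1806 other genes of at least 100 CPM were 0.97, 0.90 and 0.90. Differences in a pair were also related to differences between replicates outside it. The difference in pair 2 had a Pearson correlation of -0.51 with precursor 1 minus precursor 5. The difference in pair 5 had one of -0.69 with precursor 1 minus precursor 2, and the other genes had -0.14 and -0.08. Spearman correlations of the same were -0.53 and -0.73 over the members and -0.23 each over the other genes. For pair 2 with differentiated 1 minus differentiated 5 the Pearson correlation was -0.49 over the members and -0.36 over the other genes (Spearman -0.54 and -0.37). Members with lower values after differentiation thus tended to be those that were higher in precursor 1 than in another precursor library. Whether a shared technical property of the libraries plays a part was not tested. By transcript length, as the counts and FPKM of the table imply it, the shortest 26 members had a median log2 fold change of -0.32, the middle 27 of -0.42 and the longest 26 of -0.20.

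**Figure D5:**
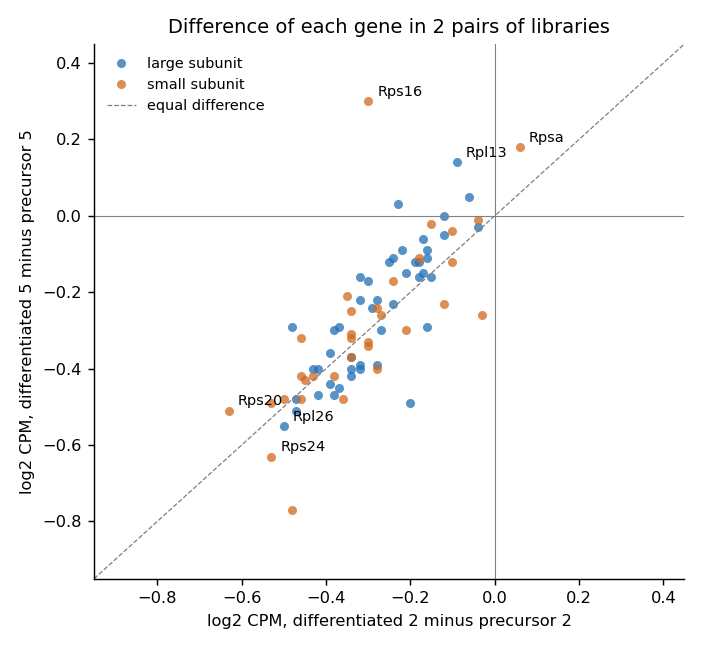
Difference in log2 CPM, differentiated minus precursor, of each member in pair 2 (x axis) and pair 5 (y axis), with large subunit genes in blue, small subunit genes in orange and a dashed line of equal differences. Most members lie below 0 in both pairs, Rpsa lies above 0 in both, and Rps16 and Rpl13 lie above 0 in pair 5 and below 0 in pair 2.

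Ribosomal protein genes have many processed copies in mammalian genomes, and a read can map to a copy as well as to the core gene. The table's descriptions named 231 further entries as copies of 66 core genes, of which 112 passed the low-count filter. Their counts came to 9.1% to 9.62% of the members' counts in every library, with no separation of the groups. The tested copies had a median log2 fold change of -0.35, 99 of 112 were negative, and 21 (18.8%) were called lower with the block, near the 15.7% of all genes, and 1 without it. In 5 cases a copy's count was within 5% of the core gene's in all 6 libraries, which was so for the second Rps19 entry and for single copies of Rps6, Rps9, Rpl8 and Rplp2. The second Rps19 entry stood at 436, 413 and 328 CPM in precursors and 332, 303 and 244 CPM in differentiated libraries, and Rps19 itself at 433, 405 and 324 against 331, 301 and 242 CPM. Their log2 fold changes were -0.42 and -0.41, both called lower with the block, and the pair cannot be counted as 2 separate observations. Rps19, like Rps24 and Rpl35a, is mutated in Diamond-Blackfan anaemia.

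For a few genes a copy held more reads than the entry of the core gene. Reads of the Rpl35a family came to 33.4 times those of the Rpl35a entry itself, which was the lowest core gene at a mean of 31.8 TPM. The factor was 11.8 for Rpl8 and 7.87 for Rplp2. The sources used here do not give how reads that map to several entries were counted. These sums may hold the same read more than once, and the factors may be too high. The Rpl35a entry alone had a log2 fold change of -0.26 and was not called with the block (edgeR adjusted p = 0.128), whereas the family summed had one of -0.22 and was called lower with the block (0.0201). For Rps27a the sum over its entries moved the log2 fold change from -0.52 to -0.36, and for Rps12 it moved from -0.54 to -0.56 (edgeR adjusted p = 0.0641 without the block). With all copies added to their core genes, 0 members were called lower without the block and 54 with it, against 15.8% of the genes tested in that fit.

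Paralogs with a symbol of their own ranged from -0.83 to 0.35 in log2 fold change over the 6 that were tested. Rps27l, a p53 target, stood at 234, 140 and 132 CPM in precursors and 135, 81.4 and 69.1 CPM in differentiated libraries, and a log2 fold change of -0.83 (SE 0.31, edgeR adjusted p = 0.166 without the block and 0.000357 with it). Its groups overlapped by differentiated 1 alone, and its core gene Rps27 stood at -0.44 on the log2 scale (edgeR adjusted p = 0.125 without the block and 0.00769 with it). As a share of Rps27 it had 33.2%, 25.7% and 25.8% of the TPM in precursors 1, 2 and 5 and 29.2%, 18.2% and 17.7% in differentiated 1, 2 and 5. Rpl36al stood at 115, 84.4 and 68.7 CPM in precursors and 102, 76.4 and 64.6 CPM in differentiated libraries (log2 fold change -0.14, edgeR adjusted p = 0.15 with the block). The ratio of Rpl36al to Rpl36a in TPM was 86.5%, 93.9% and 80.5% in precursors and 122%, 117% and 108% in differentiated libraries, without overlap. Rpl7l1 was the one paralog called higher with the block (log2 fold change 0.19, edgeR adjusted p = 0.0403), and its value was -0.07 on the TPM scale. Relative to Rpl7 it had 3.85%, 4.67% and 4.95% of the TPM in precursors and 4.87%, 6.26% and 6.69% in differentiated libraries, which overlap at differentiated 1. None of these ratios was tested, and edgeR called 0 of the 6 paralogs without the block (1 with an unadjusted p under 0.05, and 1 called lower by DESeq2).

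Rpl22l1 followed the replicate number more than the group. It stood at 237, 119 and 92.9 CPM in precursors and 200, 90.1 and 64.6 CPM in differentiated libraries, and its TPM was 98.4% of that of Rpl22 in precursor 1 and 117% in differentiated 1 but 53.8% to 61.1% in the other 4. With the block it was called lower (log2 fold change -0.39, edgeR adjusted p = 0.00932). Rpl10l, known from the testis, stood at 4.51 to 10.2 CPM with a log2 fold change of -0.48 that did not pass either test. Rpl39l stood at 0.0836 to 1.1 CPM and did not pass either test. Rpl3l, the paralog of muscle, did not pass the low-count filter, and Rpl26l1 was not analysed here. Rps4y2, which the rule includes, stood at 11.2 to 18.5 CPM, and its log2 fold change was -0.14 (edgeR adjusted p = 0.787 without the block and 0.369 with it). Its TPM was 0.759% to 1.26% of that of Rps4x.

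Other lists of the pathway had medians nearer to 0, except for snoRNA host genes, of which 2 were tested. These were Snhg4 (log2 fold change -1.05, edgeR adjusted p = 0.267 without the block and 0.191 with it) and Gas5 (-0.43, 0.449 and 0.0197). Gas5 is also counted in the list of other transcripts with a TOP start. Over all genes the shares called were 5.65% higher and 3.21% lower without the block and 14.9% higher and 15.7% lower with it. Of 50 genes of ribosomal RNA synthesis and ribosome assembly, 0 were called without the block (8 had an unadjusted p under 0.05, and DESeq2 called 1 higher), 7 were called higher and 7 lower with it (14% each way, near the shares of all genes), and the median log2 fold change was -0.01. Of 75 tested mitochondrial ribosomal protein genes, 2 were called higher and 0 lower without the block, 7 higher and 1 lower with it, and the median was 0.05. The called genes without the block were Mrpl3 (log2 fold change 0.54, edgeR adjusted p = 0.03) and Mrps7 (0.48, 0.0412). Other transcripts known for a TOP start, among them mRNAs of translation factors, had a median of -0.18 over 17 genes. One of them, Nap1l1, a histone chaperone, was called lower without the block (log2 fold change -0.53, edgeR adjusted p = 0.0343), and 7 of the 17 were with it. Of 21 genes that control mTOR and TOP mRNAs, edgeR called 1 higher and 0 lower without the block, 4 higher and 5 lower with it. The median was 0.01. Without the block 6 had an unadjusted p under 0.05, and DESeq2 called 1 higher and 2 lower, against 8.51% and 6.98% of all genes. The gene that edgeR called without the block was Ddit4, an inhibitor of mTOR complex 1. It stood at 3.42, 3.54 and 5.78 CPM in precursors and 7.2, 12.1 and 17.3 CPM in differentiated libraries (log2 fold change 1.52, SE 0.37, edgeR adjusted p = 0.0469). With 1 library left out, the calls of Nap1l1 and Ddit4 were lost in every such fit but the one without differentiated 1 (highest adjusted p 0.16 and 0.167), that of Mrpl3 in every one but that without precursor 2 (0.131), and that of Mrps7 in all 6 (0.0586 to 0.149). Whether the lists differ from the ribosomal protein genes was not tested.

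The labelled cell types were checked by markers in the same libraries. All 6 markers of oligodendrocytes were called higher in differentiated libraries without the block (median log2 fold change 4.18), and all 5 markers of dividing cells were called lower (median -0.83). Of the 5 precursor markers, 0 were called without the block, 1 had an unadjusted p under 0.05 and DESeq2 called 1 higher. With the block, 3 of them (Sox10, Cspg4 and Olig2) were called higher in differentiated libraries and 0 lower, and Pdgfra stood at -0.21 on the log2 scale (edgeR adjusted p = 0.24). Markers of astrocytes moved with the groups: 3 of 6 were called higher without the block, all 6 with it and 4 by DESeq2. All 6 had an unadjusted p under 0.05 without the block. The list summed to 4170 to 5866 CPM in precursor and 7434 to 7679 CPM in differentiated libraries. Markers of microglia (0 of 6 called), neurons (0 of 5 tested) and endothelium (0 of 4 tested) did not pass edgeR's test without the block (1, 1 and 0 had an unadjusted p under 0.05, and DESeq2 called 0 of them), and Rgs5 and Cldn5 were at 0 counts in all libraries. Of 5 tested markers of fibroblasts and pericytes, Pdgfrb was called higher without and with the block (log2 fold change 1.04). The other 4 were lower in all 3 pairs and called lower with the block, the list's median was -0.64, and it summed to 25.4 to 79.9 CPM in precursor and 20.4 to 59.9 CPM in differentiated libraries. The part of these other cells and of dividing cells in the values of the ribosomal protein genes was not tested.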

How the data were processed

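The authors deposited 1 table of 37991 entries for the 6 libraries, with raw read counts, FPKM and TPM for each, per the file headers. The submitters' processing notes list Trimmomatic 0.38, StringTie 2.1.3b, HISAT2 2.1.0 and bcl2fastq 2.20.0, in no stated order. Those notes give GRCh38 as the assembly, which is human, while the entries carry rat identifiers. Not given in the sources used here were the strand setting, the annotation and the rat assembly, so reads shared by gene copies and overlapping genes are uncertain. Libraries were prepared with a stranded total RNA kit, per the labels' protocols.

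Deposited counts were tested with edgeR 4.0.16 (quasi-likelihood, robust, TMM, filterByExpr) in R 4.3.3, 3 differentiated against 3 precursor libraries, over 17797 genes with Benjamini-Hochberg adjustment. A gene was called at an adjusted p under 0.05, and the SE is the log2 fold change divided by the square root of F. Deposited TPM values were used for levels between genes and, as log2(TPM + 1) or log2(TPM + 0.1), with limma 3.58.1. Deposited FPKM values gave the implied transcript length, the count divided by FPKM and library size. DESeq2 1.42.0, other scalings, filters, the block and left-out libraries were the alternatives. The edgeR fit was tested on simulated data.

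Named members are every called one, the 8 with the lowest and those with a positive fold change, the 8 highest by mean TPM, paralogs, and genes of set roles, besides those marked as picked later. A few genes of this rule are not reported here. The members and lists were chosen with earlier results of these data known. Replicate numbers, which the titles give, were taken as pairs: how far log2(CPM + 1) lay from its group mean was correlated across genes at 0.687 for number 1, 0.459 for number 2 and 0.634 for number 5, and at 0.172 or less between different numbers. Start sites came from RefSeq (GRCr8), 1 entry per gene and matched by identifier, for these windows and counts of runs alone.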

Additional observations from a re-analysis of the deposited data

How the results depend on the processing

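Every fit listed called 0 members higher. The number called lower was 0 in the reported fit, 22 with library size alone, 4 with DESeq2, 53 on log2(TPM + 1), 54 on log2(TPM + 0.1), 53 with the replicate block and 8 without both replicate 1 libraries. With a single library left out it ranged from 0 to 1 (1 without precursor 5, which was Rpl17, and 1 without differentiated 1). Fits added after seeing the data called 54 members lower with the copies' reads added and the block (15.8% of all genes). They called 72 with library size and the block, where 24.0% of all genes were called lower and the median of all genes was -0.18. They called 53 with TMM from the other genes and the block. With the block, they called 54 without pair 1, 30 without pair 2 and 32 without pair 5. The share of all genes is not given here for log2(TPM + 0.1) or for TMM from the other genes. The cause of these differences was not tested.

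The medians over all, large and small subunit members were negative in every fit. They were -0.429, -0.410 and -0.496 with library size alone, -0.315, -0.298 and -0.386 with upper quartile scaling, -0.541, -0.521 and -0.584 on log2(TPM + 1), -0.544, -0.523 and -0.586 on log2(TPM + 0.1), and -0.434, -0.412 and -0.460 with library size and the block. With single libraries left out they ranged from -0.390 to -0.181, from -0.363 to -0.153 and from -0.470 to -0.202, and the values nearest to 0 came without precursor 1 or differentiated 5. The small subunit's alone came to -0.311 with the block, to -0.314 once both replicate 1 libraries were left out, -0.323 with copies added, -0.309 with copies added and the block, -0.311 with TMM from the other genes and the block, and -0.316 with the block and without pair 1. The large subunit's was -0.240 with the block and without pair 2.

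Of 47 named genes, all 47 kept direction and call under both other low-count filters, 41 did under DESeq2 and 37 without both replicate 1 libraries, and 28 came to pass the test with the replicate block. Those that changed sign were not called in the reported fit. With library size alone, Rpl13 stood at -0.11, Rps14 at -0.15 and Rpsa at -0.00. With library size and the block, Rpl13 stood at -0.10, Rps14 at -0.15 and Rpl39l at -0.20. On both TPM scales Rpl13 stood at -0.21, Rps14 at -0.26, Rpsa at -0.11 and Rpl7l1 at -0.07, and on log2(TPM + 0.1) Rpl39l stood at -0.27. Rps14 stood at -0.03 with upper quartile scaling, -0.01 with DESeq2, -0.02 without both replicate 1 libraries and -0.02 with the block and without pair 1. Fau stood at 0.00 in each of the latter, and Rps16 at 0.00 with the block and without pair 1. With the block, Rpl39l stood at -0.06, also with copies added or TMM from the other genes, at -0.41 without pair 2 and -0.72 without pair 5, Rplp0 at 0.01 without pair 2 and Rpl13 at -0.00 without pair 5. With single libraries left out, values ranged as follows, with changes of sign without precursor 1 (Fau, Rpl22l1, Rpl36al, Rps4y2), precursor 2 (Rplp0, Rps2), precursor 5 (Rpl13, Rps14), differentiated 1 (Rps14), differentiated 2 (Rpl39l) or differentiated 5 (Fau, Rps3): Fau from -0.13 to 0.05, Rpl22l1 from -0.94 to 0.16, Rpl36al from -0.33 to 0.09, Rps4y2 from -0.35 to 0.07, Rplp0 from -0.07 to 0.03, Rps2 from -0.12 to 0.02, Rpl13 from -0.03 to 0.15, Rps14 from -0.07 to 0.08, Rpl39l from -0.23 to 0.89 and Rps3 from -0.15 to 0.05. The lowest member had 411 reads in the smallest library. How large counting error was beside the spread between replicates was not measured.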
